A study of Mus musculus with 8 samples.

Results

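Focal adhesions are the protein assemblies through which integrins, the main receptors for extracellular matrix, are tied to the actin cytoskeleton. The 9 genes described here, Tln1, Fermt2, Ilk, Lims1, Parva, Ptk2, Pxn, Vcl and Zyx, encode core proteins of these assemblies. They were taken by symbol as a set, with no measured value in the rule but with earlier results of these data known, and each symbol matched 1 of the 31053 gene IDs in the files. Their UMIs (unique molecular identifiers, each standing for 1 captured transcript) were counted in single cells of the mouse cortical plate. All mice were 8 weeks old and were perfused with PBS before the brain was taken. The 4 groups were Lama4-/- mice, the WT mice that served as their control, Tek-Cre:Lama5-/- mice, and a separate set of WT mice that served as control for these. Brains of 3 mice were pooled in each group and each group has 2 samples, so the libraries of a group come from 1 pool and any p-value covers the spread between libraries and not between mice. The 2 Lama4-/- samples hold identical values and were counted as 1 library, which leaves 7 distinct libraries. Tek-Cre acts in the endothelial lineage and also in blood-lineage cells, so the Lama5 deletion may reach cells outside the vessel wall.

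Each member has an established place in the adhesion. Talin (Tln1) and kindlin-2 (Fermt2) bind the cytoplasmic tails of integrin beta chains and switch the receptor to its active state. Integrin-linked kinase (Ilk), PINCH1 (Lims1) and alpha-parvin (Parva) form a stable complex that couples integrins to actin. Focal adhesion kinase (Ptk2) and paxillin (Pxn) are the kinase and the scaffold of adhesion signalling, and vinculin (Vcl) and zyxin (Zyx) link the assembly to actin filaments under tension. In cerebral vessels, endothelial cells and the mural cells around them (pericytes and smooth muscle cells) attach to a shared basement membrane in which laminins with the Lama4 or Lama5 alpha chain are major components, and integrins are among the receptors for these laminins.

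All 9 genes are protein coding, and their positions are given from GENCODE M21 on GRCm38. Of the integrin activators, Tln1 (ENSMUSG00000028465) lies at chr4:43531519-43562691 on the minus strand and Fermt2 (ENSMUSG00000037712) at chr14:45458795-45530118 on the minus strand. Of the Ilk complex, Ilk (ENSMUSG00000030890) lies at chr7:105736592-105742925, Parva (ENSMUSG00000030770) at chr7:112427505-112591692 and Lims1 (ENSMUSG00000019920) at chr10:58323466-58424691, all on the plus strand. Ptk2 (ENSMUSG00000022607) lies at chr15:73205102-73423280 on the minus strand and Pxn (ENSMUSG00000029528) at chr5:115506676-115555987 on the plus strand. Vcl (ENSMUSG00000021823) lies at chr14:20929398-21033676 and Zyx (ENSMUSG00000029860) at chr6:42349630-42360213, both on the plus strand. Other genes counted in the files overlap 6 of the 9 on the opposite strand: Creb3 overlaps Tln1, Ap3m1 overlaps Vcl, Rrp8 and Taf10 overlap Ilk, Gm44284 and Epha1 overlap Zyx, 1700085D07Rik overlaps Ptk2 and Parvaos overlaps Parva. Whether the counting used strand is not given in the sources used here, so counts of these 6 could include reads of the partner.

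The RefSeq promoter table (GRCm38.p6; 250 bases before to 50 after each start) holds entries for 6 members, Tln1, Fermt2, Ilk, Lims1, Vcl and Zyx. The windows were searched on both strands for the CArG box bound by serum response factor (SRF, a regulator of actin cytoskeleton genes), for TGACTCA or TGAGTCA (AP-1), CCGGAAG (ETS), GGAATG (TEAD) and GGGCGG (SP1). The stretches below are shown because they carry these motifs in genes that differed in endothelial cells of the Lama5 knockout. Letters in capitals mark the CArG box in Vcl and Fermt2, the AP-1 motif in Zyx and the ETS motif in Ilk. Stretches were shortened where they ran into annotated untranslated sequence.
Vcl: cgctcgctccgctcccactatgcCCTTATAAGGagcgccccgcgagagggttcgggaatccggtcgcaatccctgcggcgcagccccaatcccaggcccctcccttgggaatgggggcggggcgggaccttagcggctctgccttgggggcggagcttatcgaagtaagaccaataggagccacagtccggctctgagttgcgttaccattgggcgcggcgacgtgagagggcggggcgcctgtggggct
Fermt2: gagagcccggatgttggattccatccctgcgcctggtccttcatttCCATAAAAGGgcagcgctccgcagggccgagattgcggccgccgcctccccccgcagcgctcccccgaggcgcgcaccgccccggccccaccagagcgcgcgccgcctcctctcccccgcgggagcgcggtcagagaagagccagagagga
Zyx: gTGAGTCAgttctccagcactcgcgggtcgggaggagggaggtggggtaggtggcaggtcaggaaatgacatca
Ilk: gaccaaaccgggCCGGAAGccaccgagtga

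The Vcl stretch is chr14:20929148-20929397 (plus strand), the Fermt2 stretch chr14:45530119-45530315 (minus strand), the Zyx stretch chr6:42349706-42349779 (plus strand) and the Ilk stretch chr7:105736480-105736509 (plus strand). A CArG box was present in 535 of 32851 RefSeq promoter windows (1.63%), and its first base lay 227 bases before the start of Vcl and 204 bases before that of Fermt2. The AP-1 motif was present in 5.20% of windows; it lay 121 bases before the RefSeq start of Zyx, which lies downstream of the GENCODE gene start given above, so that the motif is inside the GENCODE gene. The ETS motif, 98 bases before the first of the RefSeq starts of Ilk, was present in 8.86%. GGAATG was found in Vcl among the members and in 14.7% of windows. GGGCGG was found in Vcl, Ilk, Zyx, Lims1 and Fermt2 and in 35.7% of windows. The windows of these genes that carry it had 66.7% (Vcl) to 76.7% (Fermt2) G and C bases, against a median of 52.7% over all windows. The part of base composition in this count was not tested. None of these motifs was in the Tln1 window. A match is a description of the letters and says nothing of binding.

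The 7 libraries held 35479306 to 48314458 UMIs. After removal of barcodes with few genes or much mitochondrial RNA and of predicted doublets, 47239 of 56961 barcodes remained (5105 to 7970 per library), and any pair of libraries shared at most 21 of these barcodes. Clusters were named from marker genes, and the 9 members did not take part in the clustering, so their levels did not define the classes. Endothelial-like cells were the largest class (26939 cells), followed by microglia-like (6333), oligodendrocyte-like (4100), smooth muscle-like (2522), pericyte-like (1343), astrocyte-like (1050), perivascular macrophage-like (566) and neuron- or neuroblast-like cells (517). The smooth muscle-like class held pericyte markers at 11.05% to 36.5% of the pericyte level, so it includes mural cells of mixed character. These markers were at 6553, 5848 and 4207 CPM (UMIs scaled to the total of the class in that library) in the Lama4 experiment. In the 4 libraries of the Lama5 experiment they were at 9524 to 10893 CPM. The class was thus not alike in the 2 experiments, which its WT medians below pool. A cluster of 174 cells with endothelial and mural markers together (74 and 71 cells in the Lama5 knockout libraries, 10 and 13 in their controls) stayed unnamed and was left out. In endothelial-like cells the targeted genes followed their labels. Lama4 was at 46.4 and 44.7 CPM in WT and at 0.0581 CPM (1 UMI) in the knockout. Lama5 was at 42.5 and 41.4 CPM in WT and at 22.2 and 24.1 CPM in the Tek-Cre knockout. Which exons were deleted is not given in the sources used here, so the remaining Lama5 UMIs could include transcripts of a deleted allele. The alpha chain gene that was not targeted also differed in these cells. Lama4 was at 30.0 and 32.0 CPM in the Lama5 controls and at 50.8 and 46.5 CPM in the Tek-Cre knockout. Lama5 was at 62.5 and 63.2 CPM in the Lama4 controls and at 76.6 CPM in the Lama4 knockout. These differences were not tested.

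The first question was where the members are expressed in normal cortex. Counts were summed per library and class and given as plain CPM, and a class is described by the median and range over the 4 WT libraries. Endothelial-like cells were compared with every other class over the 7 libraries by an exact 2-sided paired permutation test of log2(CPM + 1), with Benjamini-Hochberg adjustment; the smallest p it can give is 0.0156. Mural cells held the higher levels of most members. Of 27 pairs with pericyte-like, smooth muscle-like and microglia-like cells, 22 differed. Most genes differ between such classes: of all gene and class pairs with a mean of at least 5 CPM, 69.1% had an unadjusted exact permutation p under 0.05, as did the same 22 member pairs, so the number of differing pairs is not particular to the members. In endothelial-like cells 7 of 9 members were lower than in smooth muscle-like cells, against 28.8% of all genes, and Pxn was higher in endothelial-like cells than in both mural classes.

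Talin, the integrin activator, was highest in smooth muscle-like cells, with a WT median of 470 CPM (range 441 to 516). Pericyte-like cells followed at 294 CPM and microglia-like cells at 253 CPM, with overlapping ranges, and perivascular macrophage-like cells held 184 CPM. Endothelial-like cells held 146 CPM (141 to 155), above oligodendrocyte-like (100), neuron-like (66.4) and astrocyte-like cells (47.9). The endothelial minus smooth muscle difference for Tln1 was -1.72 ± 0.15 (log2, SD over 7 libraries; exact permutation adjusted p = 0.0192), and against pericyte-like cells it was -1.09 ± 0.22 (exact permutation adjusted p = 0.0192). Microglia-like cells also exceeded the endothelial Tln1 level in all 7 libraries, with an endothelial minus microglial difference of -0.77 ± 0.16 (exact permutation adjusted p = 0.0192).

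Kindlin-2 showed another pattern. Fermt2 was at 804 CPM in astrocyte-like, 794 in pericyte-like, 744 in smooth muscle-like and 656 (653 to 686) in endothelial-like cells. Oligodendrocyte-like cells held 407 CPM and neuron-like cells 131 CPM. In microglia-like cells Fermt2 was at 8.66 CPM, which is 1.22% to 2.32% of the endothelial level of the same library. The endothelial marker genes stood at 0.881% to 1.76% of their endothelial level in the same cells. The Fermt2 share was of like size, and the source of these Fermt2 UMIs was not tested. The differences between endothelial-like cells and both mural classes were small but held in all 7 libraries (-0.30 ± 0.12 for pericyte-like and -0.22 ± 0.09 for smooth muscle-like cells, exact permutation adjusted p = 0.0192 for each).

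The 3 genes of the Ilk complex were all higher in mural cells. Ilk itself had the flattest profile: 161 CPM in smooth muscle-like and 129 in pericyte-like cells, and 52.6 to 88.7 CPM in the other 6 classes. Its endothelial level (70.4 CPM, 63.0 to 83.0) overlapped that of microglia-like cells (70.1 CPM), and the difference of -0.02 ± 0.32 did not pass the test (exact permutation adjusted p = 0.875). Lims1 was at 450 CPM in pericyte-like and 358 in smooth muscle-like cells against 127.97 (112 to 144) in endothelial-like cells, a difference from pericyte-like cells of -1.91 ± 0.42 (exact permutation adjusted p = 0.0192).
Parva was low everywhere, at 61.1 CPM in smooth muscle-like, 60.1 in pericyte-like and 24.8 (21.3 to 28.3) in endothelial-like cells. In microglia-like cells it was at 0.525 CPM, 22 UMIs over the 7 libraries. Parva separated vascular cells, astrocyte-like cells (22.8 CPM) and neuron-like cells (16.2 CPM) from myeloid cells and oligodendrocyte-like cells (1.196 CPM).

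The kinase and its scaffold parted company. Ptk2 was highest in pericyte-like cells (247 CPM, 229 to 269), and its range there lay above that of every other class. Oligodendrocyte-like (106), smooth muscle-like (86.0), neuron-like (77.7), astrocyte-like (71.9) and endothelial-like cells (71.1 CPM, 63.2 to 79.7) followed within a narrow band, and microglia-like cells held 3.11 CPM. The Ptk2 difference between endothelial-like and smooth muscle-like cells did not pass (-0.14 ± 0.43, exact permutation adjusted p = 0.489), and its sign turned with a stricter cell filter (0.57) and at a finer clustering (0.65), where it passed (exact permutation adjusted p = 0.0183 for both). Smooth muscle-like Ptk2 was at 73.7 and 73.3 CPM in the Lama4 controls and at 98.3 and 102 CPM in the Lama5 controls. Between endothelial-like and mural cells Pxn ran opposite to most other members. It was at 95.05 CPM in perivascular macrophage-like, 86.9 (78.7 to 94.1) in endothelial-like and 68.9 in microglia-like cells, and at 18.3 and 13.7 CPM in smooth muscle-like and pericyte-like cells. The endothelial excess of Pxn was 2.11 ± 0.61 over smooth muscle-like and 2.23 ± 0.49 over pericyte-like cells (exact permutation adjusted p = 0.0192 for each).

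Among the actin links, Vcl was a gene of mural cells, at 423 CPM in pericyte-like and 418 in smooth muscle-like cells, with ranges that overlap. Smooth muscle-like Vcl was at 352 and 362 CPM in the Lama4 controls and at 492 and 475 CPM in the Lama5 controls. Astrocyte-like cells held 171 CPM and endothelial-like cells 131 CPM (128.07 to 135), and the WT medians of the other 4 classes lay between 12.2 and 15.3 CPM. Zyx was highest in smooth muscle-like cells (111 CPM), with endothelial-like (58.9), microglia-like (55.5), perivascular macrophage-like (48.5) and pericyte-like cells (47.1) overlapping below it, and 6.52 CPM in astrocyte-like cells.
The endothelial minus microglial difference of Zyx did not pass over all libraries (0.07 ± 0.78, exact permutation adjusted p = 0.828), but the order was opposite in the 2 experiments. In the Lama4 experiment endothelial-like cells held 74.2, 68.9 and 68.2 CPM against 38.3, 39.9 and 34.5 in microglia-like cells. In the Lama5 experiment endothelial-like cells held 48.9, 47.1, 58.7 and 57.2 CPM against 81.2, 71.2, 75.7 and 84.3 in microglia-like cells.

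**Figure D1:**
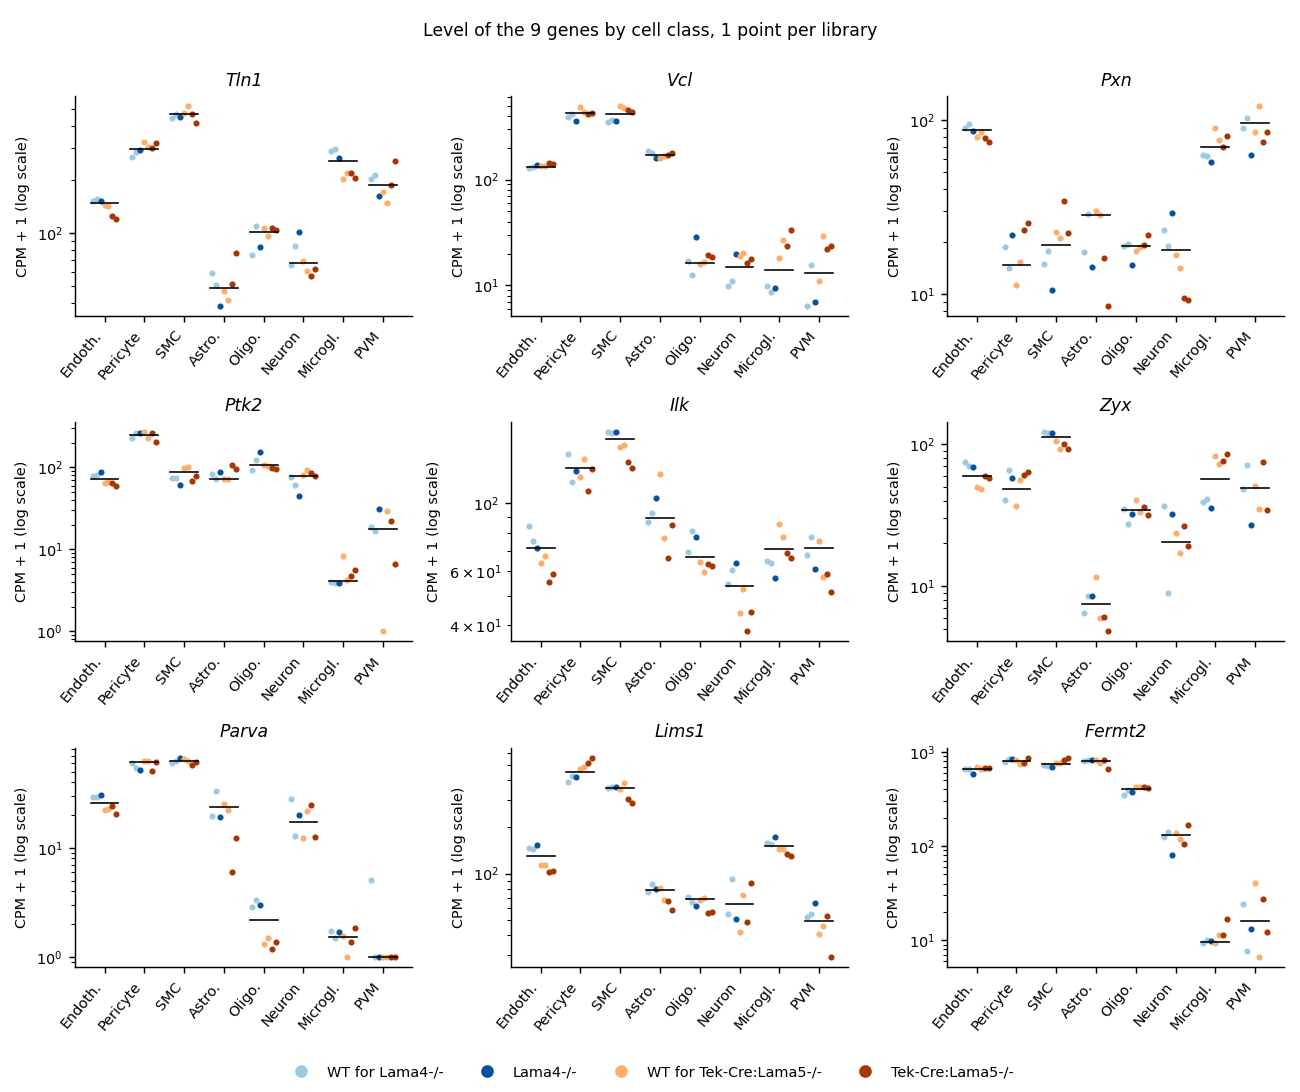
Level of each member (CPM + 1, log axis) in 8 cell classes; each point is 1 of 7 libraries and the black line is the median of the 4 WT libraries. Most members sit highest in pericyte-like and smooth muscle-like cells, Pxn sits higher in endothelial-like and myeloid cells, and Parva, Ptk2 and Fermt2 drop to near the bottom of the axis in microglia-like cells.

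With the 4 smaller classes added, after their sizes were known, 29 of 36 further pairs differed from endothelial-like cells, as did 72.5% of all gene and class pairs at an unadjusted exact permutation p under 0.05. The 7 that did not pass were Ptk2 and Parva in astrocyte-like cells, Ptk2 in neuron-like cells, Ilk in oligodendrocyte-like cells, and Pxn, Ilk and Zyx in perivascular macrophage-like cells. Zyx had its widest gap here, 3.08 ± 0.50 above astrocyte-like cells.

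To describe which genes share a member's profile, log2(CPM + 1) was correlated over 28 points for 6888 genes. The points were 4 classes in each of 7 libraries: endothelial-like, pericyte-like, smooth muscle-like and microglia-like cells. Astrocyte-like, oligodendrocyte-like, neuron-like and perivascular macrophage-like cells had fewer than 50 cells in some library and were left out. Points of a class share its cells' identity and points of a library share its depth, so no p is given. Fermt2, Parva, Ptk2 and Vcl were far lower in microglia-like cells than in the other classes used. The part of that contrast in their r was not tested. Fermt2 was closest to Col4a2 (r = 0.996), a basement membrane collagen, and to Ebf1 (r = 0.994). Vcl was closest to its fellow adhesion gene Tgfb1i1, the paxillin relative Hic-5 (r = 0.987), and to Cystm1 (r = 0.983). Ilk was closest to Dctn4 and to the muscle filament gene Des (r = 0.962 for both). Parva was closest to 4930523C07Rik (r = 0.993) and Sparcl1 (r = 0.989), Ptk2 to Cdc42ep4 (r = 0.990) and Hrct1 (r = 0.988), and Lims1 to Hopx and Gpx8 (r = 0.974 for both). Tln1 was closest to Pbxip1 (r = 0.978), and Pxn to Lhfpl2 (r = 0.959). Zyx had the loosest neighbours, Fosl2 (r = 0.878), an AP-1 subunit, and Kmt5a (r = 0.871). Among the members themselves Parva and Fermt2 went together most closely (r = 0.975), followed by Vcl and Parva (r = 0.965). Pxn was negatively correlated with each of the other 8, from r = -0.229 with Zyx to r = -0.922 with Lims1.

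The series concerns zonation of cerebral microvessels, so endothelial-like cells were clustered again without the members and grouped by zone markers into arterial-like (5606 cells), capillary-like (15054) and venous-like cells (2287); 3992 cells stayed unnamed. Several of these clusters belong almost wholly to 1 of the 2 experiments, so zones were compared within each library. The zones still differed in extent between the experiments. Arterial-like cells were 33.3% to 35.9% of endothelial-like cells in the Lama4 experiment and 15.3% to 17.0% in the Lama5 experiment. Unnamed cells were 5.02% to 5.75% in the former and 17.5% to 18.6% in the latter. Of 18 pairs of a member and a zone against capillary-like cells, 12 differed (exact permutation test over 7 libraries, adjusted over the 18 pairs). At an unadjusted exact permutation p under 0.05 it was 13 of 18, and 50% of all gene and zone pairs.
Zyx, Parva and Vcl were higher on the arterial side in all 7 libraries. Zyx was at 90.0, 83.2, 66.2 and 65.8 CPM in arterial-like cells of the 4 WT libraries and at 63.9, 57.9, 40.4 and 39.0 CPM in their capillary-like cells, with no overlap between the zones. Capillary minus arterial differences were -0.69 ± 0.18 for Zyx, -0.68 ± 0.20 for Parva and -0.57 ± 0.22 for Vcl (exact permutation adjusted p = 0.0281 for each).
Lims1 ran the other way. Its WT levels were 121, 118, 81.0 and 86.8 CPM in arterial-like and 162, 170, 127.9 and 117 CPM in capillary-like cells, and the zones overlap only across experiments (difference 0.51 ± 0.11, exact permutation adjusted p = 0.0281). Pxn (0.29 ± 0.15), Ilk (0.18 ± 0.09; exact permutation adjusted p = 0.0281 for both) and Ptk2 (0.18 ± 0.12, exact permutation adjusted p = 0.0469) were also lower in arterial-like cells, by less.

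Venous-like cells stood apart by kindlin-2. Fermt2 was at 478, 470, 560 and 548 CPM in venous-like cells of the WT libraries against 718, 697, 687 and 657 CPM in capillary-like cells, with no overlap, and the capillary minus venous difference was 0.44 ± 0.16 (exact permutation adjusted p = 0.0281). The arterial comparison of Fermt2 did not pass (0.02 ± 0.04, exact permutation adjusted p = 0.211). Parva was higher in venous-like than in capillary-like cells (-0.51 ± 0.09), as was Pxn (-0.31 ± 0.12), while Ilk (0.26 ± 0.10) was lower; exact permutation adjusted p was 0.0281 for each of the 3. Lims1 was lower in venous-like cells by 0.22 ± 0.17 (exact permutation adjusted p = 0.0469). Tln1 passed in neither zone (exact permutation adjusted p = 0.0649 and 0.750), and its arterial excess and the small Fermt2 deficit of arterial-like cells passed when zones were drawn from a finer clustering (exact permutation adjusted p = 0.0375 and 0.0256). The venous comparison of Tln1 passed there too, with its sign reversed (capillary minus venous 0.08 ± 0.08, exact permutation adjusted p = 0.0375).

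**Figure D2:**
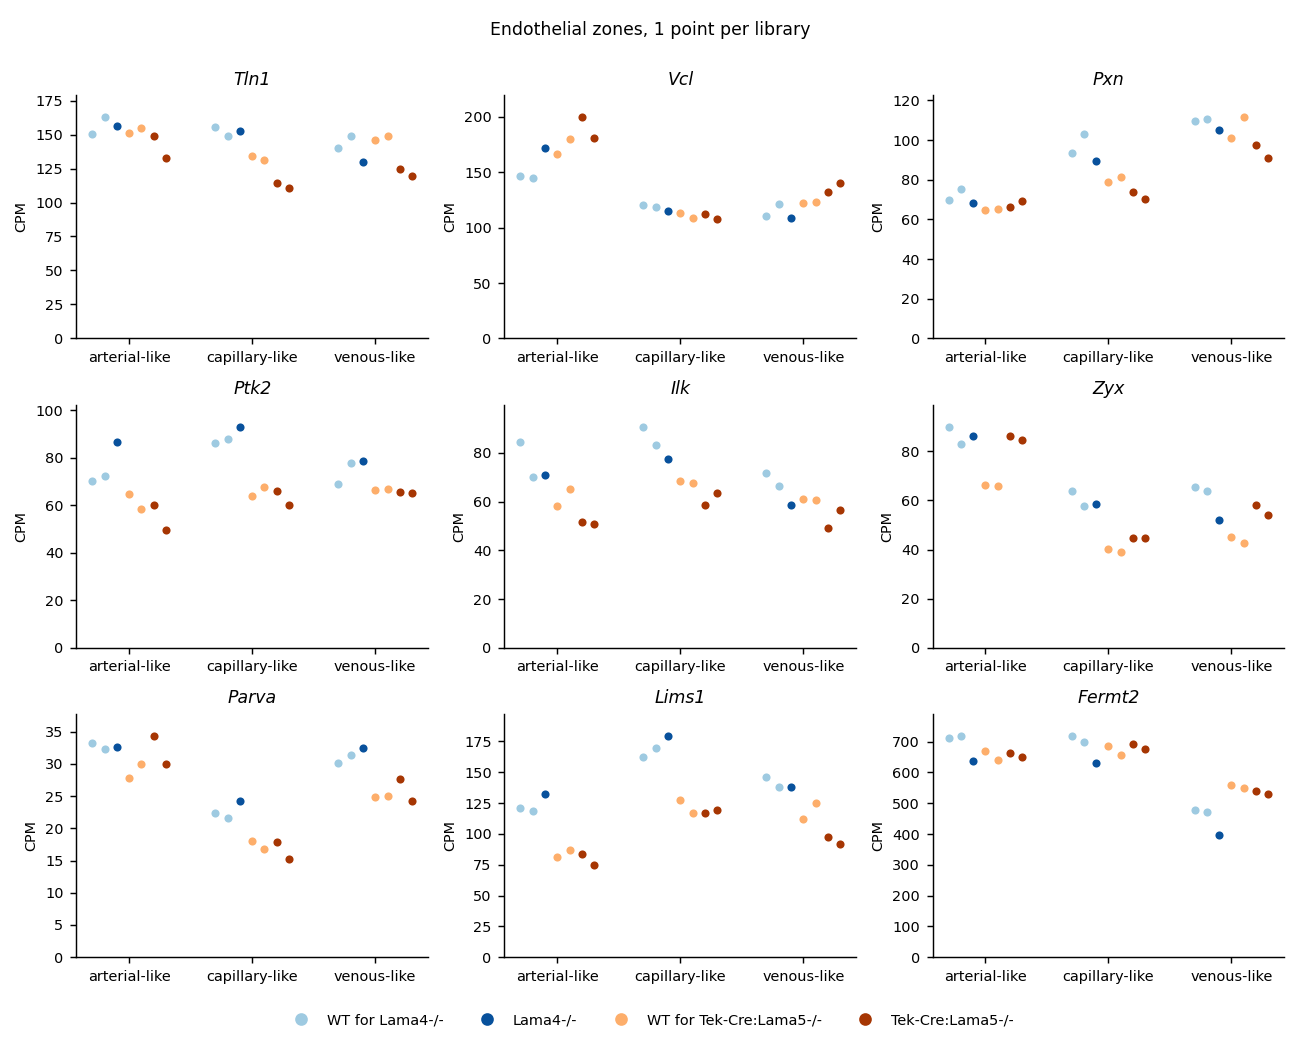
Level of each member (CPM) in arterial-like, capillary-like and venous-like endothelial cells; each point is 1 of 7 libraries. Zyx, Vcl and Parva are highest on the arterial side, Parva with venous-like cells close behind. Arterial-like and venous-like cells were not tested against each other. Lims1 is highest in capillary-like cells in 6 of 7 libraries, and Fermt2 drops in venous-like cells to between 398 and 560 CPM.

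The second question was whether loss of endothelial Lama5 went with other levels of these genes. In endothelial-like cells 5 of 9 members passed edgeR's test at an adjusted p under 0.05; over all 13253 genes tested there, 19.2% passed (1413 higher and 1135 lower). Zyx, Vcl and Fermt2 rose and Tln1 and Ilk fell. The changes were small, the largest being Zyx at 27.4%. Values below are CPM scaled by TMM (a scaling that sets the bulk of genes equal between libraries), in the order WT, WT, knockout, knockout.

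Zyx was at 47.7 and 45.9 CPM in the WT libraries and at 60.1 and 59.0 CPM in the knockout libraries. Both knockout values lie above both WT values, and the gap is several times the spread within a group. The log2 fold change was 0.35 (SE 0.0459, edgeR adjusted p = 8.57e-07). Vcl, the other actin link, was at 131 and 130 CPM in WT and 145 and 144 CPM in the knockout, again without overlap, and its fold change on the log2 scale was 0.15 (SE 0.0305, edgeR adjusted p = 0.000549).

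The integrin activators moved in opposite directions. Tln1 was at 138 and 138 CPM in WT and at 126 and 123 CPM in the knockout, and fell by 0.15 on the log2 scale (SE 0.0313, edgeR adjusted p = 0.000619). Fermt2 was at 668 and 639 CPM in WT and at 694 and 695 CPM in the knockout, a rise of 0.09 (SE 0.0213, edgeR adjusted p = 0.00313) in which the WT libraries differ from each other by about as much as the nearer one differs from the knockout. The Fermt2 call was lost with unscaled library totals (log2 fold change 0.0094, edgeR adjusted p = 0.801), without the WT library numbered 2 (edgeR adjusted p = 0.114) and in DESeq2 (adjusted p = 0.0564).

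In the Ilk complex, Ilk was at 61.4 and 64.8 CPM in WT and 55.7 and 59.8 CPM in the knockout, and fell by 0.13 (SE 0.0458, edgeR adjusted p = 0.0474). This call sits at the threshold and was lost under 4 of 10 alternatives: without the WT library numbered 2 (edgeR adjusted p = 0.285), without the knockout library numbered 1 (0.446), without the low-count filter (0.0740) and in DESeq2 (adjusted p = 0.457). Its partners did not pass. Lims1 was at 109 and 110 CPM in WT and 105 and 107 CPM in the knockout (log2 fold change -0.05, edgeR adjusted p = 0.290), and Parva at 20.7 and 21.0 CPM in WT and 23.5 and 20.2 CPM in the knockout (0.07, edgeR adjusted p = 0.558).

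The kinase and the scaffold did not pass either. Ptk2 was at 61.6 and 63.9 CPM in WT and 65.8 and 60.5 CPM in the knockout, with a 95% interval of the log2 fold change from -0.08 to 0.10 (edgeR adjusted p = 0.915). Pxn was at 76.7 and 82.2 CPM in WT and 79.3 and 76.1 CPM in the knockout, with an interval from -0.11 to 0.05 (edgeR adjusted p = 0.670). The knockout and WT values overlap for both genes.

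**Figure D3:**
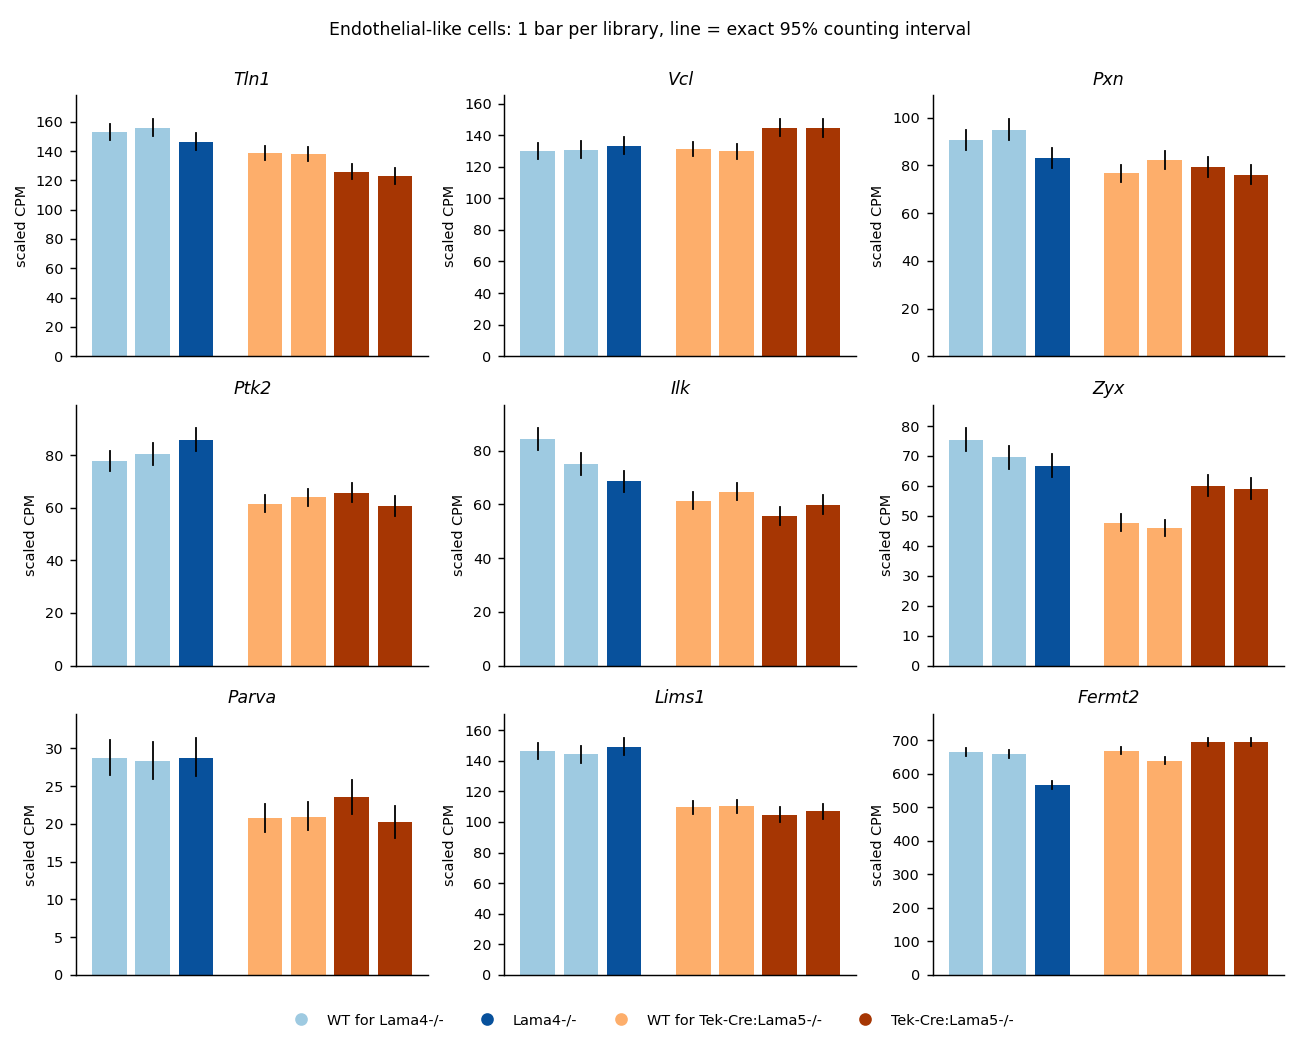
TMM-scaled CPM of each member in endothelial-like cells of each library, with bars from 0 and exact 95% counting intervals; the Lama4 and Lama5 experiments were scaled separately. Zyx and Vcl are higher and Tln1 is lower in both Tek-Cre:Lama5-/- libraries than in both of their WT libraries, and Fermt2 is lowest in the Lama4-/- library.

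Zyx and Tln1 passed under all 10 alternatives that kept the clustering, the same 10 as counted for Ilk above and for the lists below. A stricter cell filter, doublets kept and a finer clustering were tried for the members as well. None of them took away a member call in endothelial-like cells. With unscaled totals, under which the median log2 fold change of all genes moved from -0.0018 to -0.080 and the split of calls from 1413 higher and 1135 lower to 783 higher and 2823 lower, the members called were Zyx (0.27), Tln1 (-0.23), Ilk (-0.21) and Lims1 (-0.13, edgeR adjusted p = 0.00488), and Vcl was no longer called (0.07, edgeR adjusted p = 0.0971). The share of endothelial UMIs taken by Gm42418 and AY036118, a pair of loci overlapping ribosomal RNA, moved with the genotype: it was 3.99% and 3.94% in WT and 6.91% and 7.56% in the knockout. Without these loci the same number of members, 5, was called.
Markers of other cell types in the endothelial sums also differed between the groups. None of the markers of the lists given here was at 0. The summed level of 6 smooth muscle markers was 67.7 and 64.4 CPM in WT and 59.8 and 57.9 CPM in the knockout, and that of 7 pericyte markers was 33.0 and 26.9 against 37.9 and 29.3 CPM. Microglial markers were at 80.7 and 81.2 against 103 and 101 CPM, oligodendrocyte markers at 310 and 329 against 266 and 280, astrocyte markers at 173 and 168 against 135 and 133, and choroid plexus markers at 2.88 and 2.25 against 87.3 and 78.5. Erythroid markers were at 438 and 306 CPM in WT and 82.8 and 116 CPM in the knockout, and perivascular macrophage markers were at 3.53 and 3.87 against 1.41 and 1.39. Their part in the differences of the members was not tested.

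Other genes of the adhesion pathway, from fixed lists, showed changes of like size in both directions. Among 10 tested paralogs of the members, 3 fell and 2 rose, where 19.2% of all 13253 genes tested passed. The PINCH paralog Lims2 was at 205 and 208 CPM in WT and 162 and 163 CPM in the knockout (-0.34, SE 0.0278, edgeR adjusted p = 6.64e-11), a larger change than that of Lims1. The parvin paralog Parvb was at 272 and 276 against 242 and 240 CPM (-0.18, edgeR adjusted p = 1.4e-06), and Tln2 at 44.2 and 46.3 against 39.7 and 38.4 CPM (-0.21, edgeR adjusted p = 0.00309). Trip6, of the zyxin family, rose from a low level (0.26, edgeR adjusted p = 0.0392), as did Parvg (0.96, edgeR adjusted p = 0.0131, at about 1 to 2 CPM). The Trip6 call held under 5 and the Parvg call under 6 of 10 alternatives, and DESeq2 called 0 paralogs higher and 2 lower. The median log2 fold change of these paralogs was -0.07, against -0.0018 for all genes.

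Of 35 other adhesion components, 5 rose and 10 fell, with a median of -0.02, where 19.2% of all genes passed. DESeq2 called 3 higher and 3 lower, and with unscaled totals edgeR called 3 higher and 15 lower. The phosphatase gene Ptpn12 was at 83.9 and 78.6 CPM in WT and 108 and 99.0 CPM in the knockout (0.35, edgeR adjusted p = 1.14e-07). Arhgef7 (beta-PIX, 0.27) and the docking protein Bcar1 (p130Cas, 0.25) also rose. Kank3, a talin-binding protein, was at 292 and 295 CPM in WT and 247 and 239 CPM in the knockout (-0.27, edgeR adjusted p = 1.4e-09), and Evl (-0.23), Sorbs3 (-0.22) and Tns1 (-0.15) fell as well.
Of 11 tested matrix receptors, 1 passed, where 19.2% of all genes did. Itga1, the alpha chain of a collagen and laminin receptor, was at 508 and 495 CPM in WT and 426 and 417 CPM in the knockout (-0.25, edgeR adjusted p = 4.43e-10). Of 9 tested actin and SRF target genes, 5 rose and none fell, with a median of 0.08, where 19.2% of all genes passed. Actb was at 4948 and 5085 CPM in WT and 5486 and 5404 CPM in the knockout (0.12, edgeR adjusted p = 3.94e-06). With unscaled totals none of this list rose and 1 fell, so its direction rests on the scaling. Lims2, Parvb, Ptpn12, Arhgef7, Bcar1, Kank3, Tns1 and Itga1 passed under all 10 alternatives tried.

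**Figure D4:**
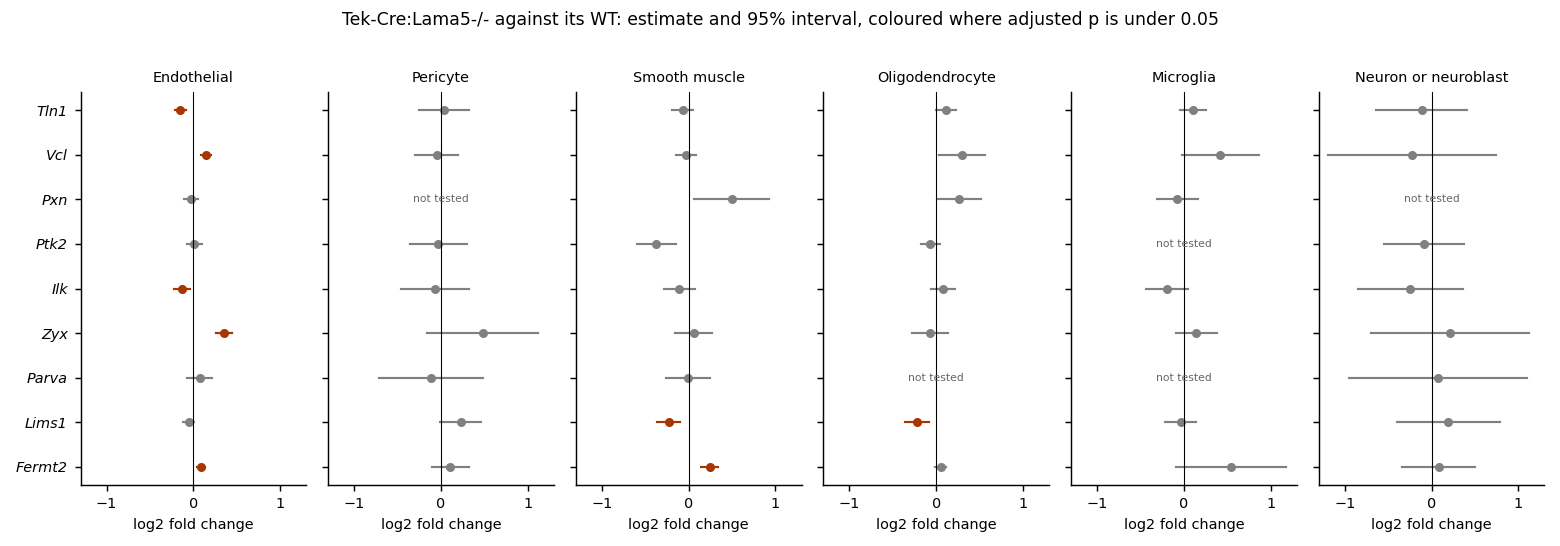
Log2 fold change of each member in Tek-Cre:Lama5-/- against its WT in 6 cell classes, with bars of 95% intervals; coloured points passed edgeR's test at an adjusted p under 0.05. Zyx, Vcl, Fermt2, Tln1 and Ilk are coloured in endothelial-like cells, Fermt2 and Lims1 in smooth muscle-like cells and Lims1 in oligodendrocyte-like cells.

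In the other classes few members passed. In smooth muscle-like cells 2 of 9 did, against 5.16% of all genes. Fermt2 was at 746 and 738 CPM in WT and 850 and 907 CPM in the knockout (0.24, SE 0.0509, edgeR adjusted p = 0.00249), and Lims1 at 343 and 370 CPM in WT and 314 and 295 CPM in the knockout (-0.23, SE 0.0676, edgeR adjusted p = 0.0436). Neither gene's groups overlap. Ptk2 was at 96.1 and 98.8 CPM in WT and 68.8 and 81.7 CPM in the knockout, just outside the threshold (-0.38, edgeR adjusted p = 0.0502).
Neither call was made with a stricter cell filter (0.14 for Fermt2 and -0.21 for Lims1) or at a finer clustering (0.16 and -0.22), and the cause was not tested. Fermt2 was called in pericyte-like cells with the stricter filter (0.24, edgeR adjusted p = 0.0247) and at the finer clustering (0.24, edgeR adjusted p = 0.0149). At the finer clustering smooth muscle-like cells numbered 130 and 159 in WT and 198 and 193 in the knockout. The main clustering had 366 and 398 in WT and 409 and 441 in the knockout. Pericyte-like cells numbered 383 and 407 in WT and 383 and 417 in the knockout. The main clustering had 147 and 168, and 172 and 170. The smooth muscle-like Fermt2 call was also lost with unscaled totals (0.15, edgeR adjusted p = 0.0824). The Lims1 call was lost in DESeq2 and without either WT library or the knockout library numbered 2 (edgeR adjusted p = 0.0503, 0.368 and 0.280). The pericyte markers in smooth muscle-like cells were at 10893 and 10769 CPM in WT and 9524 and 9876 CPM in the knockout, and their part in these values was not tested.

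In oligodendrocyte-like cells, where 10.7% of all genes passed, the 1 member called was Lims1, at 65.1 and 67.3 CPM in WT and 56.1 and 57.0 CPM in the knockout (-0.23, edgeR adjusted p = 0.0307). That call was lost in DESeq2 (adjusted p = 0.346) and on leaving out any 1 library, with edgeR adjusted p between 0.0723 and 0.164. No member passed edgeR's test in microglia-like cells (13% of all genes passed), pericyte-like (0.807%), neuron-like (0.588%), astrocyte-like (0.402%) or perivascular macrophage-like cells (0.817%). The unadjusted edgeR p was under 0.05 for 1 member in these classes, Pxn in astrocyte-like cells, and DESeq2 called none there either. With the stricter cell filter Tln1 (1.64, edgeR adjusted p = 0.000117) and Fermt2 (-0.52, edgeR adjusted p = 0.0217) were called in astrocyte-like cells. Without that filter astrocyte-like Tln1 had 10 and 20 UMIs in the knockout libraries. In perivascular macrophage-like cells 3 of 9 members had enough counts to be tested.
Intervals show how little the smaller classes could have shown. For Zyx in pericyte-like cells (37.2 and 57.0 CPM in WT, 63.8 and 68.8 CPM in the knockout) the 95% interval of the log2 fold change ran from -0.16 to 1.12, which contains the endothelial value.

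Whether the Lama5 effect differed between classes was tested as an interaction, with the library as a block. The Tln1 effect was more positive in microglia-like than in endothelial-like cells by 0.26 (SE 0.0869, edgeR adjusted p = 0.0470; 5.11% of all genes passed) and in oligodendrocyte-like cells by 0.23 (SE 0.0688, edgeR adjusted p = 0.0304; 3.67% of all genes passed). Tln1 was at 197 and 211 CPM in WT and 226 and 211 CPM in the knockout in microglia-like cells, where the nearest WT and knockout libraries held almost equal values, and at 103 and 93.1 against 108 and 105 CPM in oligodendrocyte-like cells. The Zyx effect in oligodendrocyte-like cells was lower by 0.46 than in endothelial-like cells (difference -0.46, SE 0.112, edgeR adjusted p = 0.00337), with 38.9 and 31.5 CPM in WT and 35.8 and 31.6 CPM in the knockout. For smooth muscle-like (1.12% of all genes passed), pericyte-like (0.16%), neuron-like (0.125%), astrocyte-like (0.228%) and perivascular macrophage-like cells (0.103%) no member's effect passed this test against endothelial-like cells.

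Within endothelial-like cells, the zones were fitted separately as an addition made after the endothelial result was known. Zyx rose in all 3 zones. It was at 64.8 and 64.5 CPM in arterial-like cells of WT and at 87.9 and 87.4 CPM in those of the knockout (0.44, SE 0.0831, edgeR adjusted p = 0.000193). In venous-like cells it was at 44.5 and 41.8 against 59.3 and 55.8 CPM (0.42, SE 0.0996, edgeR adjusted p = 0.00386), and in capillary-like cells at 39.3 and 38.0 against 45.8 and 46.1 CPM (0.25, SE 0.0788, edgeR adjusted p = 0.0157). The groups do not overlap in any zone, and whether the effect differs between zones was not tested.
In arterial-like cells 2 of 9 members passed (5.19% of all genes), Zyx and Vcl (163 and 176 against 204 and 187 CPM; 0.21, edgeR adjusted p = 0.0387). In capillary-like cells 3 passed (13.2% of all genes): Zyx, Tln1 (131 and 127 against 118 and 115 CPM; -0.15, edgeR adjusted p = 0.0123) and Fermt2 (668 and 639 against 711 and 702 CPM; 0.11, edgeR adjusted p = 5.49e-05). In venous-like cells 4 passed (8.78% of all genes): Zyx, Tln1 (143 and 146 against 127.6 and 123 CPM; -0.21, edgeR adjusted p = 0.0338), Vcl (120 and 121 against 135 and 145 CPM; 0.21, edgeR adjusted p = 0.0351) and Lims1 (111 and 122 against 99.8 and 94.7 CPM; -0.26, edgeR adjusted p = 0.0186).
The arterial Zyx call held under every alternative tried, and each of the other 8 zone calls was lost under several. DESeq2 called 1 member in arterial-like cells and none in the other zones. The venous Zyx call was lost without the WT library numbered 2 (edgeR adjusted p = 0.0910) and without the knockout library numbered 1 (0.0595), and the capillary Zyx call without the WT library numbered 2 and without either knockout library (0.0735 to 0.141) and with unscaled totals (0.131). The capillary Fermt2 call was lost without the WT library numbered 2 (edgeR adjusted p = 0.0841), without the knockout library numbered 1 (0.0774) and with unscaled totals (0.490), and the capillary Tln1 call without the WT library numbered 1 (0.136) or the knockout library numbered 2 (0.154). Vcl was lost in arterial-like cells without the WT library numbered 1 or either knockout library (edgeR adjusted p = 0.0722 to 0.427). In venous-like cells Tln1 was lost on leaving out any 1 library (edgeR adjusted p = 0.0717 to 0.191), Vcl without either WT library or the knockout library numbered 2 (0.124 to 0.278), and Lims1 without the WT or the knockout library numbered 2 (0.307 and 0.124).

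The Lama4-/- group holds 1 distinct library, so no test was made. Ratios are given with exact 95% counting intervals, and a member was counted as past the rule where it had at least 20 CPM and the knockout lay at least 25% above or 20% below the mean of the WT libraries and on the same side of both. In endothelial-like cells none of the 9 members was past the rule, where 4.14% of 6401 genes were. The values are in the order WT, WT, knockout. Fermt2 was at 666, 659 and 567 CPM, a ratio of 0.856 (95% counting interval 0.836 to 0.876), and the knockout library lay well below both WT libraries, which were close to each other. Ilk was at 84.2, 75.0 and 68.6 CPM (ratio 0.860, 0.804 to 0.920). In Pxn the values were 90.7, 94.9 and 83.1 CPM (0.897, 0.843 to 0.953).

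For the other members the endothelial ratios were nearer to 1. Zyx was at 75.3, 69.5 and 66.6 CPM (0.918, 0.857 to 0.983), Tln1 at 153, 156 and 146 CPM (0.948, 0.905 to 0.993) and Ptk2 at 77.7, 80.4 and 85.7 CPM (1.08, 1.02 to 1.15). Ratios of Vcl (1.02), Lims1 (1.03) and Parva (1.01) had intervals that include 1. The intervals cover counting error only. For Ilk and Zyx the WT libraries differ from each other by more than the nearer one differs from the knockout. An interval that excludes 1 therefore does not by itself set the knockout apart. Markers of other cell types moved in the same endothelial sums: choroid plexus markers were at 155 and 99.0 CPM in WT and 1051 CPM in the knockout, erythroid markers at 203 and 527 against 35.7 CPM, and smooth muscle markers at 130 and 133 against 109 CPM. Their part in the ratios of the members was not tested.

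Fermt2 had the lower value in the knockout in each endothelial zone, with ratios of 0.868 (0.837 to 0.899) in arterial-like, 0.867 (0.835 to 0.899) in capillary-like and 0.804 (0.758 to 0.853) in venous-like cells. Zyx in venous-like cells was the 1 member past the rule in a zone, at 66.9 and 64.3 CPM in WT and 50.4 CPM in the knockout (ratio 0.767, 0.650 to 0.903). Shares of all genes past the rule were 5.74%, 6.14% and 9.74% in arterial-like, capillary-like and venous-like cells. With plain library totals the venous Zyx ratio no longer passed.
Outside the endothelium, none of 8 members with enough counts was past the rule in pericyte-like cells (31.5% of all genes) or in smooth muscle-like cells (15.2%), and none of 5 in microglia-like cells (7.34%). Smooth muscle-like Fermt2 was at 733, 707 and 696 CPM, a ratio of 0.967 (0.909 to 1.03). In microglia-like cells Tln1 was at 292, 297 and 258 CPM (0.874, 0.830 to 0.921). In the small astrocyte-like class Tln1 (59.7, 49.7 and 37.4 CPM, ratio 0.684, 0.502 to 0.925) and Parva (0.687, 0.434 to 1.07) were past the rule, as were 18.2% of all genes. In perivascular macrophage-like cells 4 of 6 members were past it, as were 35.5% of all genes: Tln1 (0.767, 0.592 to 0.983), Pxn (0.642, 0.421 to 0.953) and Zyx (0.435, 0.223 to 0.782) lower and Ptk2 (1.77, 0.865 to 3.48) higher. The intervals of astrocyte-like Parva and macrophage-like Ptk2 include 1.

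**Figure D5:**
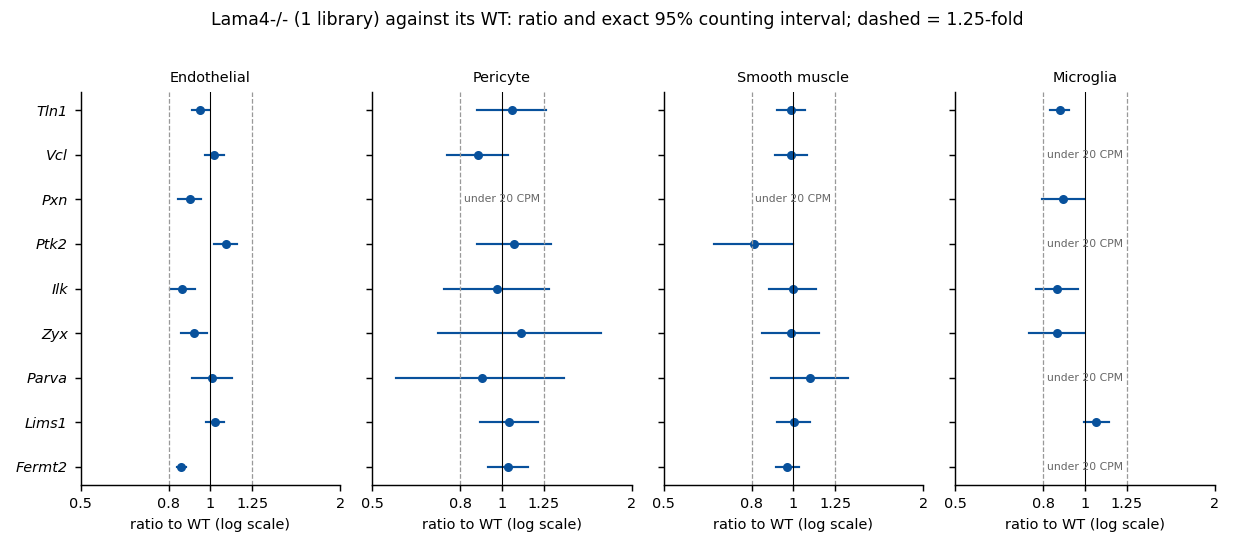
Ratio of the Lama4-/- library to its WT libraries for each member in 4 cell classes, with exact 95% counting intervals. Dashed lines mark 25% above and 20% below WT, and members under 20 CPM are not drawn. All points drawn lie within the dashed lines, and endothelial Fermt2 has a narrow interval from 0.836 to 0.876.

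Of 29 other adhesion components with enough counts, 3 were past the rule in Lama4-/- endothelial-like cells, all lower: Ptpn12 (86.4 and 75.0 CPM in WT, 57.2 CPM in the knockout), Sorbs3 (67.2, 59.2 and 49.8 CPM) and Pdlim7 (49.8, 55.1 and 41.7 CPM). In these cells 4.14% of all genes were past the rule. Ptpn12 was higher in the Lama5 knockout and Sorbs3 was lower there, each against its own WT. The difference between the knockouts was not tested.

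The control libraries of the 2 experiments give a scale for these numbers. In endothelial-like cells 56.7% of all genes, and 7 of 9 members, passed edgeR's test between the Lama5 controls and the Lama4 controls. Zyx was at 50.9 and 49.0 CPM in the former and at 71.7 and 66.2 CPM in the latter (-0.47, SE 0.0490, edgeR adjusted p = 8.36e-07), a larger difference than that of either knockout. Parva (-0.29), Lims1 (-0.24), Ilk and Ptk2 (-0.17 each) were also lower and Vcl (0.17) and Fermt2 (0.15) higher in the Lama5 experiment, while Tln1 (0.00, edgeR adjusted p = 0.933) and Pxn (-0.06, edgeR adjusted p = 0.252) did not pass. Experiment and pool of mice cannot be told apart here, which is why each knockout was set against its own control only.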

How the data were processed

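Single cells of mouse cortical plate were profiled with a Chromium 3' v3 kit, per the labels' protocols. The values used are raw UMI counts per gene and barcode as deposited by the authors; Cell Ranger 3.1.0 is named in the file headers, and mm10, Cell Ranger and Seurat 3.1 in the submitters' processing notes. The settings of cell calling and the use of strand are not given in the sources used here. Of the 31053 gene IDs, 30934 (99.6%) matched GENCODE M21.

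Cells with at least 500 genes and under 15% mitochondrial UMIs were kept, and barcodes with the highest simulated-doublet scores (0.8% per 1000 cells) were removed. Counts were scaled to 10000 per cell and clustered from 2000 variable genes, without the 9 members, Lama4 and Lama5, by 30 principal components, 15 neighbours and Leiden at resolution 1 (Python 3.11.15, igraph 0.11.9). Of 36 clusters, 8 (2936 cells, 6.22%) stayed unnamed. Median UMIs per kept cell were 3005 to 6682.5 by library, and endothelial-like sums held 17207831 to 22942324 UMIs.

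Counts were summed per library and class and tested with edgeR 4.0.16 (R 4.3.3; filterByExpr, TMM, quasi-likelihood F test, Benjamini-Hochberg adjustment over all genes of the class), for classes with at least 50 cells in each library; classes with at least 40 were added after their sizes were known. For the Lama4 knockout, the ratios given with intervals set TMM-scaled knockout counts against the summed WT counts, without a pseudocount. The log2 ratios and the fold rule used the mean WT CPM and a pseudocount of 0.5 CPM. The adjusted p threshold was 0.05. Fits were tested on simulated counts. All 9 members are named in each comparison. Other genes of the lists were named if called in endothelial-like cells of the Lama5 knockout, at most 5 per list and direction. They were also named if past the fold rule in endothelial-like cells of the Lama4 knockout. Members and lists were chosen with earlier results of these data known. Alternatives were DESeq2 1.42.0, its size factors, unscaled totals, no low-count filter, a replicate block, each library left out, stricter cell filters (1000 genes, 10% mitochondrial UMIs), doublets kept and Leiden resolution 2.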

Additional observations from a re-analysis of the deposited data

Results flagged for a closer look

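Effects of the Lama5 deletion on 2 members differed between cell classes in the interaction test. The Tln1 effect was more positive by 0.265 (log2, edgeR adjusted p = 0.0470) in microglia-like than in endothelial-like cells, and by 0.228 (edgeR adjusted p = 0.0304) in oligodendrocyte-like cells. The Zyx effect in oligodendrocyte-like cells minus that in endothelial-like cells was -0.455 (edgeR adjusted p = 0.00337).

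For several members all Lama5 knockout libraries lay on one side of their controls while the Lama4 knockout library fell on the other side of its controls, and these differences were not tested. In endothelial-like cells Zyx had a log2 fold change of 0.349 in the Lama5 knockout and a log2 ratio of -0.121 in the Lama4 knockout, Fermt2 had 0.0874 and -0.224, and Lims1, which did not pass edgeR's test, had -0.0543 and 0.0373. In smooth muscle-like cells, whose pericyte marker level differed between the experiments, Fermt2 had 0.243 and -0.0493. For endothelial Zyx and smooth muscle Fermt2 the Lama4 controls differ from each other by more than the nearer one differs from the knockout.

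The same held for members whose Lama5 difference did not pass edgeR's test. Tln1 had 0.103 and -0.194 in microglia-like, 0.639 and -0.545 in astrocyte-like and 0.530 and -0.382 in perivascular macrophage-like cells. Vcl had 0.165 and -0.219 in astrocyte-like cells, and Lims1 had -0.0388 and 0.0873 in microglia-like cells. The Lama4 values rest on 1 knockout library.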

How the results depend on the processing

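Members called in the Lama5 knockout numbered as follows. Endothelial-like cells had 5, with 3 in DESeq2 and 3 to 5 on leaving out 1 library; oligodendrocyte-like cells had 1, with 0 in DESeq2 and 0 on leaving out any library. Smooth muscle-like cells had 2, with 1 in DESeq2, without the low-count filter or with doublets kept, 0 with the stricter cell filter or at resolution 2, and 1 to 3 on leaving out 1 library. Pericyte-like cells had 0, and 1 (Fermt2) with the stricter filter or at resolution 2. Astrocyte-like cells had 0, and 2 with the stricter filter, Tln1 (log2 fold change 1.64) and Fermt2 (-0.52). Arterial-like cells had 2, with 1 in DESeq2, with unscaled totals or without the low-count filter, and 1 to 2 on leaving out 1 library. Capillary-like cells had 3, with 0 in DESeq2 or without the low-count filter and 1 to 2 on leaving out 1 library, and venous-like cells 4, with 0 in DESeq2 and 0 to 2 on leaving out 1 library. Over all genes in endothelial-like cells edgeR called 2548, DESeq2 1009 and edgeR with unscaled totals 3606. The WT comparison called 7 members, 5 in DESeq2 and 6 to 7 on leaving out 1 library.

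Same-numbered samples share only a number (correlation of their deviations -0.0202 in endothelial-like and 0.0346 in microglia-like cells). The replicate block called 5 members in endothelial-like cells and 3 in smooth muscle-like cells, the third being Ptk2 (edgeR adjusted p = 0.0297).

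Members past the Lama4 rule on leaving out 1 WT library numbered 1 to 3 in astrocyte-like cells (2 with both), 0 to 1 in pericyte-like cells (0) and 1 to 3 in venous-like cells (1). The stricter filter gave 1 in pericyte-like and 1 in smooth muscle-like cells, resolution 2 gave 1 in smooth muscle-like cells, and plain totals 0 in venous-like cells. Signs reversed for Pxn in Lama4 pericyte-like cells (-0.188 at resolution 2), for endothelial minus smooth muscle Ptk2 (0.653 at resolution 2, 0.572 with the stricter filter) and for capillary minus venous Tln1 (0.0791 at resolution 2, where it passed). With the 4 WT libraries alone 0 level pairs could pass, since the smallest p is then 0.125. Where the cause of such a change is not the smaller number of samples, the cause was not tested. Depth limits perivascular macrophage-like, astrocyte-like and neuron-like cells, which had 42 to 267 cells per library.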
